A study of Mus musculus with 10 samples.

Results

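Potassium channel genes were read in mouse medulloblastoma tissue and neonatal cerebellum as all genes whose symbol is Kcn, then letters, then a number at the end. This rule took 92 of the 50559 genes counted in each library, and 6 further symbols that begin with Kcn but do not end in this way (Kcnd3os, Kcne1l, Kcnmb4os1, Kcnmb4os2, Kcnq1ot1 and Kcnrg) fell outside it. By role the 92 genes were 30 pore subunits of voltage-gated channels, 15 inward rectifiers, 14 two-pore-domain leak channels, 8 pore subunits grouped as the family of calcium- and sodium-activated channels, 10 silent subunits that only work within other channels, and 15 auxiliary subunits without a pore.

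The study sequenced total RNA of 10 formalin-fixed, paraffin-embedded (FFPE) tissue samples and asked how tumors driven by MYC gain and SMARCA4 loss differ from another medulloblastoma model and from young cerebellum. The 4 MYC/SMARCA4 tumors grew in CD1nu/nu mice, which lack T cells, after a culture of granule cell precursors was transplanted into the cerebellum. This culture came from Math1-creERT2::Smarca4fl/fl pups, in which tamoxifen activates Cre in Math1-expressing cells and so deletes Smarca4 there, and it was exposed to a lentiviral construct for MYC. Which of its cells carried both changes was not analysed here, and the labels give tumors 1 to 4 ages of 112, 96, 89 and 79 days. The 3 P7 cerebella came from Math1-creERT2::Smarca4fl/fl mice aged 7 days to which tamoxifen (0.4 mg) had been given at 3 days of age, so this control carries the Smarca4 deletion as well, in Math1-expressing cells. The 3 samples of SHH MB, a medulloblastoma with an active Sonic hedgehog pathway, came from Math1-cre::Smofl/wt mice and are also labelled with an age of 7 days. The tumors were sampled as biopsy punches and the P7 control as whole cerebella, so the area of tissue read differed between these groups. A punch of tissue holds tumor cells and every other cell in its area, including cells of the host. Each library was taken as 1 replicate, as the labels number them.

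Potassium channels let potassium leave or enter cells and so set the resting potential, the shape of each spike and the rate of firing. In the cerebellum, granule neurons carry leak currents, fast transient currents of Kv4 channels and G protein-gated inward rectifiers, while Purkinje cells and interneurons depend on Kv1, Kv3 and calcium-activated channels. Glia, choroid plexus, microglia and vessel walls each use other members of the family, so tissue RNA mixes channel genes of many cells.

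The feature that joins all pore subunits is the selectivity filter, a short loop that lines the pore and passes potassium but not sodium. Its coding bases were searched in the annotated coding sequence of every gene (GRCm39) as 5 codons in a row: a codon of threonine or serine, any codon, a glycine codon, a codon of tyrosine or phenylalanine, and a glycine codon. All 77 pore and silent subunits held these codons at least once, and 0 of the 15 auxiliary subunits did. The windows below show the filter codons in capitals and 9 bases on either side, 5′ to 3′ on the coding strand, for 9 genes that carry results described further on.
Kcna1, chr6:126619182-126619214, minus strand: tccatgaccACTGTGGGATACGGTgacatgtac
Kcnb2, chr1:15780261-15780293, plus strand: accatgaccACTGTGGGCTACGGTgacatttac
Kcnh5, chr12:75134231-75134263, minus strand: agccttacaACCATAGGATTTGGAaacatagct
Kcnh8, chr17:53185010-53185042, plus strand: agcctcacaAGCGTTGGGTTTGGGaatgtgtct
Kcnj3, chr2:55327630-55327662, plus strand: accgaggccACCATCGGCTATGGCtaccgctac
Kcnj6, chr16:94633627-94633659, minus strand: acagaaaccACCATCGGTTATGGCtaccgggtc
Kcnj9, chr1:172153742-172153774, minus strand: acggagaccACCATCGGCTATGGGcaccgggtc
Kcnk3, chr5:30779537-30779569, plus strand: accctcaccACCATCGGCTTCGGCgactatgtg
Kcnt1, chr2:25784370-25784402, plus strand: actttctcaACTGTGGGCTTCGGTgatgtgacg

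Kcnk3 has a pair of such loops per subunit, as a leak channel with 2 pore domains, and the second is shown.

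Library totals over all genes were 6547245, 6945005, 5663491 and 9352109 counts for tumors 1 to 4, 8958307, 8139778 and 5933515 in the P7 cerebella, and 5930961, 7933586 and 7031248 in SHH MB. Levels below are CPM, counts relative to library sizes scaled by the TMM method, and 3 counts, taken as the floor of detection, lay between 0.304 and 0.737 CPM. Floors cover counting error only. Of the 92 genes, 8 and 12 were at or under the floor in tumors 1 and 2, while in each other library at most 1 was.

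The labels were checked on marker genes first. Myc stood at 151, 365, 1574 and 1007 CPM in tumors 1 to 4, against 12.9 to 14.2 CPM in the P7 cerebella and 33.4 to 45.4 CPM in SHH MB, and reads of the construct were not told apart from those of the mouse gene. Smarca4 stood at 207, 242, 135 and 236 CPM in the tumors, 219 to 279.7 CPM in the P7 cerebella and 486 to 585 CPM in SHH MB. Counts over the whole gene include recombined transcripts and other cells, so they do not check the deletion. The Sonic hedgehog target Gli1 was highest in SHH MB (154 to 189 CPM), with 8.35 to 111 CPM in the tumors and 49.2 to 56.3 CPM in the P7 cerebella. Markers of granule cell precursors, 10 genes with Mki67 as the most abundant, summed to 1566, 2316, 2115 and 2001 CPM in the tumors, 2428, 2244 and 2214 CPM in the P7 cerebella and 3998, 4096 and 4975 CPM in SHH MB, and none of the 10 was at 0. Here and below the most abundant marker is named once per list and need not lead in each library. In tumor 1 the 9 markers other than Mki67 summed to 1521 CPM.

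Tumor 1 stood apart from the other tumors before any comparison was made. Mki67, a gene of dividing cells, was at 45.2 CPM in tumor 1 and at 765, 932 and 707 CPM in tumors 2 to 4. The 10 markers of mature granule neurons (Reln the most abundant, none at 0) summed to 8372, 3819.6, 814 and 1969.9 CPM in tumors 1 to 4, 1319, 1404 and 1259.8 CPM in the P7 cerebella and 760.3, 761 and 924 CPM in SHH MB. The 9 others were Gabra6, Cbln1, Cbln3, Grin2c, Calb2, Snap25, Syt1, Etv1 and Vsnl1. They summed to 7589, 2889, 324 and 1663 CPM in the tumors, 688 to 829 CPM in the P7 cerebella and 272 to 394 CPM in SHH MB. Whether these genes were particular to mature granule neurons here was not tested. The 10 Purkinje cell markers (Itpr1 the most abundant, none at 0) summed to 14245, 3995, 800.1 and 2765 CPM in the tumors, 2825, 2664 and 2439.9 CPM in the P7 cerebella and 1494, 1585 and 1202 CPM in SHH MB. Tumor 1 was thus the highest and tumor 3 the lowest tumor for both neuronal lists. Results are therefore given with all 4 tumors, and for the Kcn genes called by edgeR again without tumor 1. Not all other results are given without it. In bulk tissue, fewer cells of a type and less RNA per cell cannot be told apart.

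The summed level of the 92 potassium channel genes followed the same order of tumors. It was 21872, 9023, 1969 and 5299 CPM in tumors 1 to 4, 4686, 4604 and 4293 CPM in the P7 cerebella and 2565, 2678 and 2849 CPM in SHH MB. The tumors thus spanned a wider range than both other groups together, from below every SHH MB library to above every P7 library. The most abundant gene in every tumor was Kcnip4, with 42.2, 37.6, 15.4 and 32.8 percent of the summed CPM. In the P7 cerebella it was Kcnj6, with 16.8, 14.97 and 15.6 percent, and in SHH MB it was Kcnj6 in libraries 1 and 3 and Kcnd2 in library 2, with 7.94, 9.49 and 8.16 percent. Without Kcnip4 the sums were 12653, 5633, 1665 and 3562 CPM in tumors 1 to 4. They were then 4486, 4382 and 4112 CPM in the P7 cerebella and 2439, 2510 and 2614 CPM in SHH MB. Tumor 4 thus lay below every P7 library without this gene. The median level of the 92 genes was 10.9, 12.9, 9.09 and 11.5 CPM in the tumors. It was 13.4 to 13.9 CPM in the P7 cerebella and 9.01 to 10.5 CPM in SHH MB. Of the 92 genes, 42 had their highest tumor level in tumor 1 and 32 in tumor 3, and 24 and 35 had their lowest there. Such counts over all genes are not given, so these do not set the Kcn genes against other genes. What part the neuronal cells, whose markers moved with these sums, had in them was not tested.

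**Figure D1:**
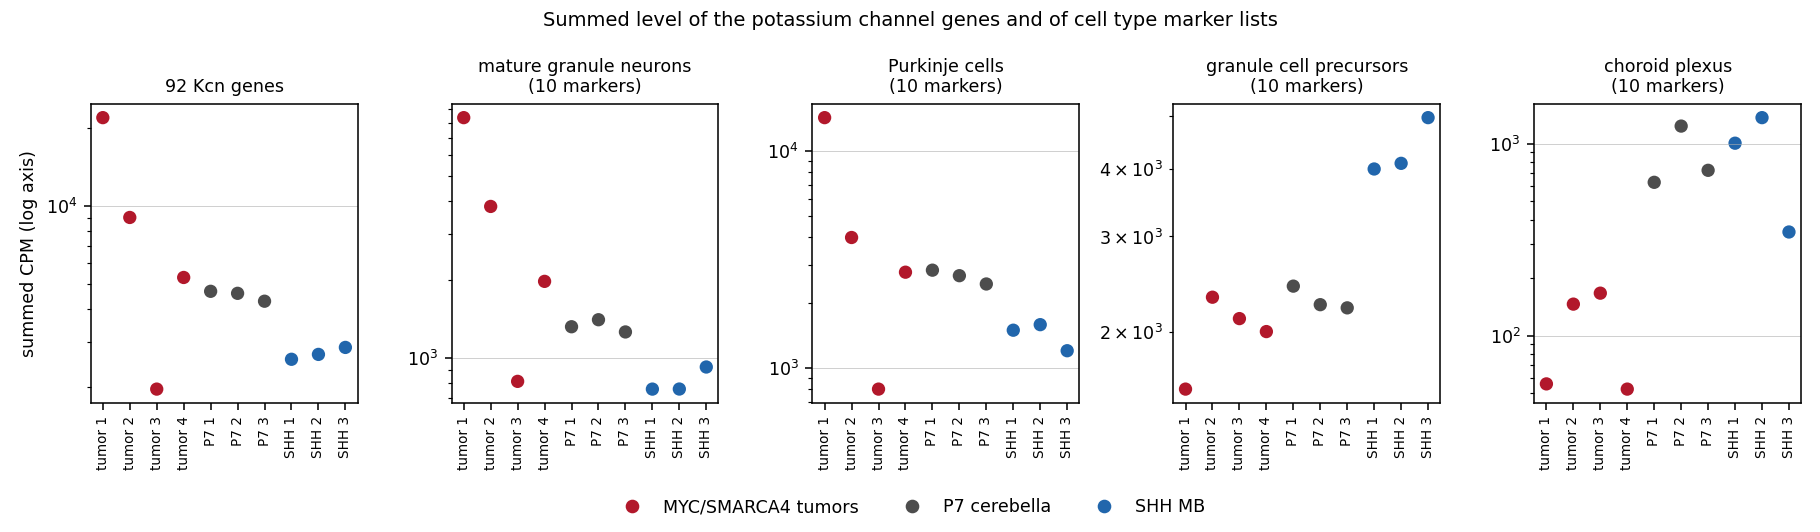
Summed CPM (log axis) of the 92 Kcn genes and of 4 lists of 10 cell type markers in each library, 1 point per library. Tumor 1 has the highest Kcn sum (21872 CPM) and tumor 3 the lowest (1969 CPM), and the choroid plexus sum of each tumor, most of whose difference is Ttr, lies below every P7 and SHH MB library.

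The first comparison, MYC/SMARCA4 tumors against P7 cerebella, asks what sets the tumors apart from the tissue their precursors were taken from. The calcium sensor gene Kcnip4 and the inward rectifier genes Kcnj9 and Kcnj12 were higher in the tumors, by 18.2-fold, 4.17-fold and 3.78-fold in the fit. The rectifier gene Kcnj6, the Kv2 gene Kcnb2, Kcnh8, Kcne2, Kcnk2, Kcnn3 and Kcns2 were lower, from 2.76-fold (Kcns2) to 7.22-fold (Kcne2). In all, edgeR called 3 of the 91 genes tested higher (3.30 percent) and 7 lower (7.69 percent) at an adjusted p of at most 0.05, while over all 29952 genes tested 3.99 percent were higher and 2.27 percent lower. Kcnk15, with at most 0.926 CPM in any library, was the 1 member not tested.

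The second comparison, the same 4 tumors against SHH MB, asks how the model differs from another medulloblastoma of granule cell precursors. The tumors also differ in labelled age and in host mouse from SHH MB, as from the P7 cerebella. These differences cannot be told apart from that of the model. The axonal Kv1 genes Kcna1 and Kcna2, the silent subunit gene Kcng4, the sodium-activated channel gene Kcnt1, the leak channel genes Kcnk3 and Kcnk12, the rectifier genes Kcnj3 and Kcnj9, and Kcnip4 were higher in the tumors, from 3.51-fold (Kcnj3) to 20.8-fold (Kcnip4). Kcnb2, Kcnh5, Kcnh8 and Kcne2 were lower, from 3.69-fold (Kcnb2) to 7.40-fold (Kcne2). These were 9 of 91 genes higher (9.89 percent) and 4 lower (4.40 percent) by edgeR, beside 2.43 percent higher and 2.26 percent lower over all 29952 genes. Both comparisons share the tumors and are not independent, so each gene is given below with its own value in each.

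All 10 genes called higher in either comparison had their highest tumor level in tumor 1, and their lowest in tumor 3 (7 genes) or tumor 4 (3 genes). How often this held for called genes outside the Kcn family is not given. Without tumor 1, edgeR called the same 3 genes higher than in P7 cerebella and 16 lower, beside 9.64 and 6.11 percent of 29877 genes. Against SHH MB it then called 12 higher and 6 lower, beside 5.0 and 4.75 percent of all genes. The calls added against P7 cerebella were Kcna5, Kcna6, Kcnip1, Kcnk1, Kcnk9, Kcnmb1, Kcnmb2, Kcnq5 and Kcnv2, all lower, and those added against SHH MB were Kcnab3, Kcnc2 and Kcnj4 (higher) and Kcnj6 and Kcnn3 (lower). Kcnip1 and Kcnmb1 overlap on opposite strands, so their calls may not be separate. By the thresholds the study states (adjusted p no higher than 0.01, log2 fold change no smaller than 2.5), edgeR called 0 genes higher and 0 lower against P7 cerebella, beside 0.0901 and 0.2 percent of all genes. Against SHH MB it called 1 higher, Kcna1, and 0 lower, beside 0.124 and 0.477 percent. At an unadjusted p of at most 0.05, edgeR found 10 higher and 15 lower against P7 cerebella, beside 15.3 and 9.98 percent of all genes. It found 26 and 9 against SHH MB, beside 12.7 and 7.09 percent.

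Other tools and fits called more or fewer genes at an adjusted p of at most 0.05. DESeq2 called 10 higher and 8 lower against P7 cerebella (9.63 and 4.21 percent of all genes) and 15 and 5 against SHH MB (7.89 and 4.11 percent). These held all calls of edgeR. With limma on the deposited values there were 1 and 6 (1.2 and 1.23 percent), and 4 and 3 (0.692 and 1.21 percent). The calls lost with limma were Kcnj9, Kcnj12 and Kcns2 against P7 cerebella and Kcna2, Kcne2, Kcng4, Kcnj9, Kcnk3 and Kcnk12 against SHH MB. An edgeR fit of only the 2 groups compared called 0 higher and 3 lower against P7 cerebella (Kcnb2, Kcnj6 and Kcnn3), beside 0.206 and 0.607 percent. This fit called 1 higher (Kcna1) and 1 lower (Kcnb2) against SHH MB, beside 0.337 and 1.15 percent, so that all other calls were lost. With the replicate number as a block, which has no pairing behind it, the calls that held were Kcnb2 and Kcnn3 against P7 cerebella and Kcna1, Kcnb2 and Kcnj3 against SHH MB. Against P7 cerebella Kcnj9 was also lost with at least 10 counts asked of every library, and Kcns2 without a filter. Kcne2 and Kcnh8 do not reach 10 counts in every library and were not tested under that rule. Losses given with single genes below are those without 1 library and come on top of these.

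The counts moved with single libraries. Against P7 cerebella they ranged from 0 to 16 higher and from 3 to 22 lower when 1 library was left out, with the lowest counts without any P7 library (0 higher and 3 lower) and the highest without tumor 3. Over all genes the shares were then 0.109 to 0.264 percent higher and 0.5 to 0.641 percent lower, and without tumor 3 they were 11.8 and 22.8 percent. Against SHH MB they ranged from 1 to 21 higher and from 1 to 10 lower, with 1 higher and 1 or 2 lower without any SHH MB library and the highest counts without tumor 3. Beside these, 0.166 to 0.188 percent of all genes were higher and 0.789 to 0.969 percent lower, and 9.57 and 13.9 percent without tumor 3. Over the 91 genes the median log2 fold change was -0.22 against P7 cerebella, with 37 genes above 0, beside -0.05 over all genes. Against SHH MB it was 0.12, with 51 genes above 0, beside 0.01 over all genes. Without tumor 1 these medians were -0.38 beside -0.25, and -0.04 beside -0.15.

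**Figure D2:**
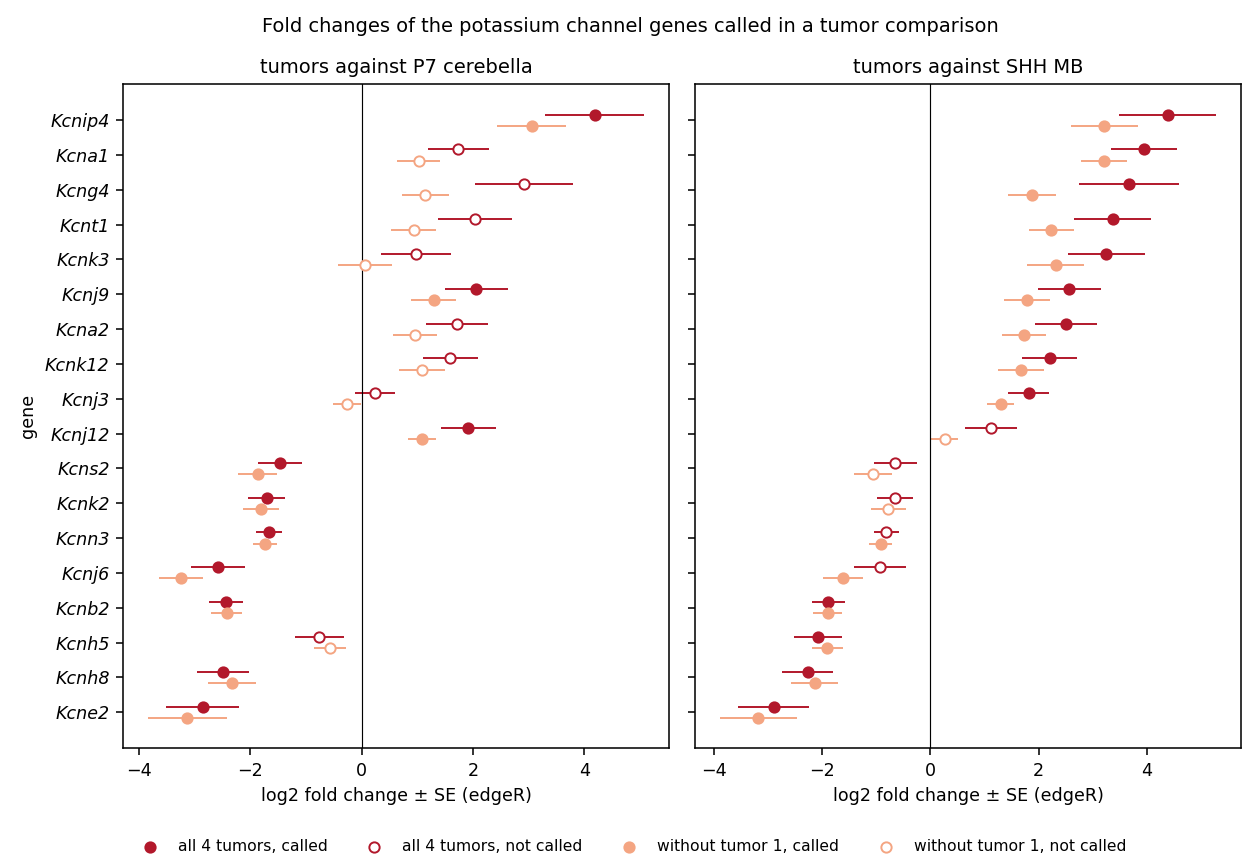
Log2 fold change with its standard error (edgeR) of the 18 Kcn genes called in either tumor comparison, with all 4 tumors and without tumor 1; filled points passed an adjusted p of 0.05. The fold changes of Kcnb2 (-2.44 and -2.42 against P7 cerebella) and Kcnn3 (-1.65 and -1.73) differ little between both fits, and those of Kcnip4 (4.19 and 3.06) differ more.

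Voltage-gated pore subunits open when the membrane is depolarized and repolarize it. Of these 30 genes, edgeR called 0 higher and 2 lower against P7 cerebella (2 and 7 at an unadjusted p of at most 0.05), and 2 higher and 3 lower against SHH MB (9 and 4 at that unadjusted p). DESeq2 called 2 and 2, and 5 and 3, and limma 0 and 2, and 1 and 3. Over all genes 3.99 and 2.27 percent were higher and lower against P7 cerebella in edgeR, and 15.3 and 9.98 percent at that unadjusted p. These shares were 9.63 and 4.21 percent with DESeq2 and 1.2 and 1.23 percent with limma. Against SHH MB they were, in the same order, 2.43 and 2.26, 12.7 and 7.09, 7.89 and 4.11, and 0.692 and 1.21 percent. The same shares stand beside the counts of every other role below. Kcna1 codes for a Kv1 subunit that sits along axons and at their terminals and damps firing. Its level was 971, 577, 179 and 176 CPM in tumors 1 to 4, 170.1, 134 and 123 CPM in the P7 cerebella and 34.7, 31.6 and 26.8 CPM in SHH MB. Every tumor lay above every P7 library, though tumors 3 and 4 only just, and far above every SHH MB library. For tumor 4 the order against P7 library 1 rests on the TMM factors, which were 0.884 and 1.10 in these libraries. Against SHH MB the log2 fold change was 3.94 ± 0.60 (SE) with an adjusted p of 0.00324 in edgeR, higher in 4 of 4 tumors, and it was 3.20 without tumor 1 (adjusted p = 0.000521). Against P7 cerebella it was 1.74 ± 0.54 and did not pass in edgeR (adjusted p = 0.0741), while DESeq2 called it higher.

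Kcna2, whose product joins that of Kcna1 in the same axonal channels, had 876, 459, 97.9 and 247 CPM in the tumors, 136, 136 and 112 CPM in the P7 cerebella and 76.5, 85.5 and 60.1 CPM in SHH MB. Tumor 3 lay below all P7 libraries, and all tumors lay above SHH MB. Against SHH MB it was 5.66-fold higher in the fit (edgeR adjusted p = 0.0285, higher in 4 of 4 tumors). Without tumor 1 it was 3.30-fold higher (0.0162), and the call was lost without tumor 2 (0.0561) or without SHH MB library 1 (0.145), 2 (0.129) or 3 (0.176). Of the 8 Kv1 genes these were the 2 called in that comparison, and 0 of 8 were called against P7 cerebella by edgeR, where DESeq2 called both of them higher.

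Kcnb2 codes for a Kv2 subunit, of the slow delayed rectifiers of neuronal cell bodies. It had 14.2, 25.2, 11.9 and 26.4 CPM in the tumors, 110.1, 107 and 101 CPM in the P7 cerebella and 61.6, 69.6 and 84.6 CPM in SHH MB. No group overlapped another, with the tumors lowest and the P7 cerebella highest. In edgeR the log2 fold change was -2.44 ± 0.31 against P7 cerebella (adjusted p = 0.00179) and -1.88 ± 0.30 against SHH MB (adjusted p = 0.00434), lower in 4 of 4 tumors each. Without tumor 1 it was -2.42 and -1.90. These calls were kept in each of 19 other fits, though not at the thresholds of the study.

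Kcnh8 codes for an ELK channel, which opens near the resting potential. It was counted 3, 5, 26 and 16 times in tumors 1 to 4, 88, 87 and 94 times in the P7 cerebella and 73, 72 and 53 times in SHH MB, which is 0.737, 0.892, 3.61 and 1.94 CPM, 8.92, 9.42 and 13.3 CPM, and 11.3, 8.41 and 7.46 CPM. Tumors 1 and 2 were near the floor, and all tumors lay below both other groups. Against P7 cerebella the log2 fold change was -2.49 ± 0.47 (edgeR adjusted p = 0.0134) and against SHH MB it was -2.27 ± 0.47 (0.0181), lower in 4 of 4 tumors each. Both calls were kept without tumor 1. Without P7 library 1, 2 or 3 the adjusted p of the first was 0.06, 0.0771 and 0.101, and that of the second missed the threshold without tumor 4 (0.0529) or SHH MB library 1 (0.0949), 2 (0.0711) or 3 (0.0546).

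Kcnh5 codes for an EAG channel that has been studied in medulloblastoma cells, where it bears on cell volume at mitosis. It had 2.46, 17.5, 7.08 and 9.07 CPM in the tumors, 14.8, 16.8 and 14.6 CPM in the P7 cerebella and 42.4, 32.8 and 39.2 CPM in SHH MB. SHH MB lay above all other libraries, and tumor 2 alone among the tumors lay above the P7 cerebella. Against SHH MB the log2 fold change was -2.07 ± 0.44 (edgeR adjusted p = 0.0206, lower in 4 of 4 tumors) and -1.90 without tumor 1 (0.00136). Its call was lost without tumor 4 (0.0566) or SHH MB library 1 (0.102), 2 (0.0741) or 3 (0.101). Against P7 cerebella it was -0.76 ± 0.44 and did not pass. The related ERG gene Kcnh2 had 49.9, 30.5, 15.8 and 15.4 CPM in the tumors, 24.3 to 33.2 CPM in the P7 cerebella and 25.5 to 32 CPM in SHH MB, with overlap of all groups.

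Kcnd2 and Kcnc1, for fast currents of mature neurons, were not called by edgeR in the tumor comparisons with all libraries, while DESeq2 called Kcnd2 higher against SHH MB. Kcnd2, the Kv4 gene behind the transient current of granule neurons, had 3218, 864, 119 and 579 CPM in the tumors, 477, 402 and 418 CPM in the P7 cerebella and 181, 218 and 237 CPM in SHH MB. Kcnc1, a Kv3 gene for channels that let neurons fire at high rates, had 942, 328, 38.6 and 221 CPM in the tumors, 158, 193 and 165 CPM in the P7 cerebella and 127, 99.4 and 117 CPM in SHH MB. For both genes tumor 3 lay below every library of both other groups, and the other 3 tumors lay above them. For Kcnd2 the log2 fold change was 1.47 ± 0.75 against P7 cerebella and 2.49 ± 0.79 against SHH MB (edgeR adjusted p of 0.237 and 0.0947), and 0.15 and 1.15 without tumor 1.

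**Figure D3:**
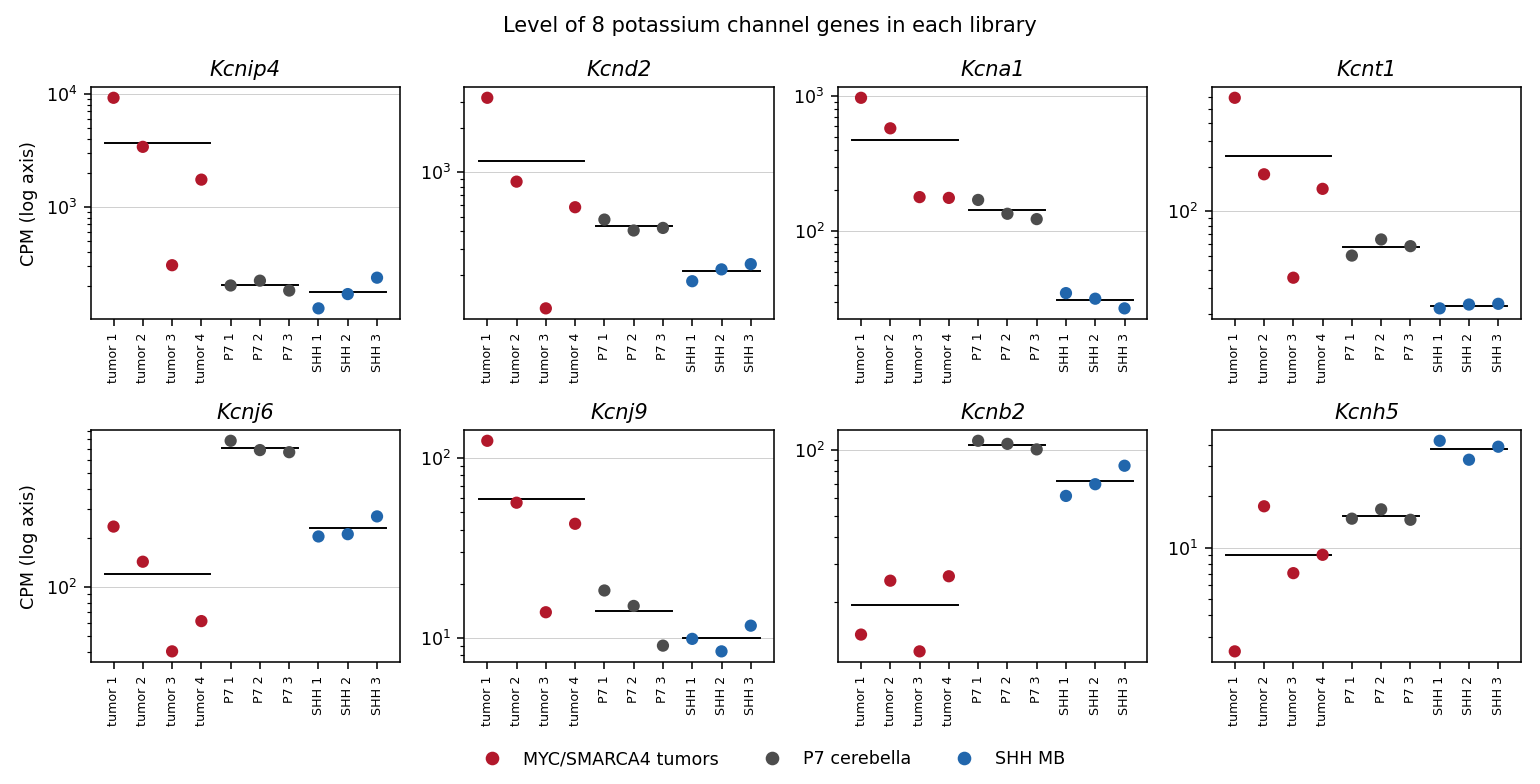
CPM (log axis) of 8 Kcn genes in each library, 1 point per library, with a line at each group mean. The tumors spread widely for Kcnip4, Kcnd2 and Kcnt1 with tumor 1 highest, while for Kcnb2 the 4 tumors (11.9 to 26.4 CPM) lie below every P7 and SHH MB library.

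Inward rectifiers hold the resting potential, and among the 15 genes edgeR called 2 higher and 1 lower against P7 cerebella, and 2 higher and 0 lower against SHH MB. At an unadjusted p of at most 0.05 there were 2 and 1, and 5 and 2. DESeq2 gave the counts of edgeR at the adjusted p, and limma 0 and 1, and 1 and 0. Their G protein-gated members Kcnj3, Kcnj5, Kcnj6 and Kcnj9 join in mixed channels that open when transmitters act on coupled receptors. Kcnj6 is known from the weaver mouse, in which a mutation of this gene kills granule neurons. It had 234, 143, 40.3 and 61.7 CPM in the tumors, 786, 689 and 669 CPM in the P7 cerebella and 204, 210.3 and 270.3 CPM in SHH MB. The P7 cerebella lay above all other libraries, and tumor 1 fell within the range of SHH MB, with the other tumors below it. Against P7 cerebella the log2 fold change was -2.58 ± 0.49 (edgeR adjusted p = 0.0134, lower in 4 of 4 tumors) and -3.24 without tumor 1 (0.000277). Against SHH MB it was -0.93 ± 0.48 and did not pass (0.303), and it passed without tumor 1 (-1.62, adjusted p = 0.0149).

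Kcnj3, whose product reaches the cell surface only with a partner, had 254, 155, 101 and 76.5 CPM in the tumors, 145, 112 and 115 CPM in the P7 cerebella and 42, 38.6 and 44.5 CPM in SHH MB. The tumors lay on both sides of the P7 cerebella and all above SHH MB. The log2 fold change was 1.81 ± 0.38 against SHH MB (edgeR adjusted p = 0.0189, higher in 4 of 4 tumors) and 1.29 without tumor 1 (0.0066), and 0.23 ± 0.36 against P7 cerebella (0.68). Without SHH MB library 1, 2 or 3 the adjusted p was 0.12, 0.123 and 0.116.

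Kcnj9, which codes for a further neuronal partner, had 125, 56.4, 13.9 and 43.1 CPM in the tumors, 18.3, 15 and 9.05 CPM in the P7 cerebella and 9.87, 8.41 and 11.7 CPM in SHH MB. Tumor 3 fell among the P7 libraries, and all tumors lay above SHH MB. For Kcnj9 the log2 fold change was 2.06 ± 0.56 against P7 cerebella (edgeR adjusted p = 0.0485, above all P7 libraries in 3 of 4 tumors) and 2.57 ± 0.58 against SHH MB (0.0262, 4 of 4 tumors). Without tumor 1 it was 1.29 (0.0488) and 1.78 (0.0171). The first call was lost without tumor 2 (0.0835) or 4 (0.068), P7 library 1 (0.123), 2 (0.185) or 3 (0.224), or SHH MB library 1 (0.0812), 2 (0.0806) or 3 (0.0779), and the second without SHH MB library 1 (0.136), 2 (0.146) or 3 (0.125). The gene lies opposite Igsf8, and the strand setting of the counting is not given in the sources used here.

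The mix of the 4 G protein-gated genes was read as the share of each in their summed CPM per kilobase of exon. These shares and the ratios below were chosen after the values were seen and were not tested. Kcnj6 made up 26.1, 27.2, 14.96 and 22.8 percent in tumors 1 to 4, 70.8, 73.1 and 72.6 percent in the P7 cerebella and 65.7, 68.7 and 70.8 percent in SHH MB. Kcnj3 made up 57.3, 60.1, 76.3 and 57.4 percent in the tumors, 26.6, 24.2 and 25.4 percent in the P7 cerebella and 27.5, 25.6 and 23.7 percent in SHH MB. Kcnj9 made up 16.2, 12.6, 6.04 and 18.7 percent, then 1.94, 1.87 and 1.15 percent, then 3.73, 3.22 and 3.59 percent. Kcnj6 thus led in every P7 and SHH MB library and Kcnj3 in every tumor, also with the longest transcript as length, where Kcnj3 made up 42.9, 45.4, 65.0 and 43.5 percent and Kcnj6 37.1, 39.1, 24.2 and 32.8 percent in the tumors. The ratio of Kcnj6 to Kcnj9 on this scale was 1.60, 2.16, 2.48 and 1.22 in the tumors, 36.6, 39.1 and 63.0 in the P7 cerebella and 17.6, 21.3 and 19.7 in SHH MB. Kcnj5, the least of the 4, had at most 6.48 CPM in any library and no read in tumor 2.

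Kcnj12, for a strong rectifier known best from heart and muscle, had 187, 63.7, 44.6 and 43.7 CPM in the tumors, 20.7, 29.8 and 16.6 CPM in the P7 cerebella and 48, 34.9 and 34.2 CPM in SHH MB. Every tumor lay above every P7 library, while tumors 3 and 4 fell within SHH MB. Against P7 cerebella the log2 fold change was 1.92 ± 0.50 (edgeR adjusted p = 0.0405, higher in 4 of 4 tumors), and 1.08 without tumor 1 (0.0128). The call was lost without tumor 2 (0.0586), P7 library 1 (0.146), 2 (0.117) or 3 (0.191), or SHH MB library 1 (0.067), 2 (0.0695) or 3 (0.0677). Skeletal muscle markers, 10 genes with Myh4 as the most abundant, summed to 37.1, 9.46, 40.1 and 16.3 CPM in the tumors, 37.2 to 39.2 CPM in the P7 cerebella and 20.6 to 31.2 CPM in SHH MB, and Ckm, Tnnt3, Mylpf and Tnnc2 were at 0 in at least 1 library.

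Kcnj10, Kcnj13 and Kcnj8 are known from cells other than neurons, and none was called by edgeR, DESeq2 or limma in a tumor comparison. Kcnj10, the potassium buffer of astrocytes and Bergmann glia, had 66.3, 162, 17.5 and 83.3 CPM in the tumors, 93.7, 139 and 137 CPM in the P7 cerebella and 88.4, 102 and 84.4 CPM in SHH MB. The 10 markers of astrocytes and Bergmann glia (Slc1a2 the most abundant, none at 0) summed to 1139.7, 2827, 529 and 2179 CPM in the tumors, 2277, 2316 and 2242 CPM in the P7 cerebella and 1767, 1939.6 and 2037 CPM in SHH MB. Tumor 2 was highest and tumor 3 lowest for both, and how far these cells set the level of Kcnj10 was not tested. Kcnj13, of the choroid plexus and other epithelia, had 54.8, 35.5, 14.4 and 37.9 CPM in the tumors, 20.4 to 27.6 CPM in the P7 cerebella and 28 to 35.4 CPM in SHH MB, and it lies opposite the gene Gigyf2. Kcnj8, of pericytes, had 2.46, 7.14, 5.27 and 2.18 CPM in the tumors, 3.9 to 6.59 CPM in the P7 cerebella and 5.63 to 7.6 CPM in SHH MB.

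Leak channels of the two-pore-domain family pass potassium at rest, and of the 13 genes tested 0 were called higher and 1 lower against P7 cerebella, and 2 higher and 0 lower against SHH MB, by edgeR. At an unadjusted p of at most 0.05 there were 1 and 1, and 3 and 0, while DESeq2 called 1 and 1, and 2 and 0, and limma 0 and 1, and 0 and 0. Kcnk3, for an acid-sensitive channel, had 98, 46.8, 7.08 and 20.6 CPM in the tumors, 25.3, 25.2 and 14.7 CPM in the P7 cerebella and 3.24, 5.26 and 4.93 CPM in SHH MB. The tumors lay on both sides of the P7 cerebella and above SHH MB, tumor 3 by the least. The log2 fold change was 3.25 ± 0.71 against SHH MB (edgeR adjusted p = 0.0231, higher in 4 of 4 tumors) and 2.31 without tumor 1 (0.0149). Kcnk12, for a channel of this family that is mostly silent at the surface, had 86, 69.2, 13.6 and 30.8 CPM in the tumors, 15.4, 17.1 and 17 CPM in the P7 cerebella and 9.72, 10 and 12.5 CPM in SHH MB. Tumor 3 lay below the P7 cerebella and just above SHH MB, where the log2 fold change was 2.21 ± 0.51 (adjusted p = 0.0283, 4 of 4 tumors) and 1.67 without tumor 1 (0.0265). The call of Kcnk3 was lost without SHH MB library 1, 2 or 3 (0.134, 0.108 and 0.121), and that of Kcnk12 without the same libraries (0.154, 0.148 and 0.13) or tumor 2 (0.0646).

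Kcnk2, for a channel gated by stretch and lipids, had 13.8, 23.4, 6.94 and 11.5 CPM in the tumors, 44.7, 46.1 and 44.7 CPM in the P7 cerebella and 21.9, 22.9 and 20.4 CPM in SHH MB. All tumors lay below the P7 cerebella, and all but tumor 2 lay below SHH MB. Its log2 fold change against P7 cerebella was -1.71 ± 0.34 (edgeR adjusted p = 0.0156, lower in 4 of 4 tumors) and -1.81 without tumor 1 (0.0027), and the call was lost without P7 library 1 (0.0593), 2 (0.0749) or 3 (0.0707). Kcnk9, a leak channel gene strong in granule neurons, had 372, 118, 22.1 and 67.9 CPM in the tumors, 291, 253 and 191 CPM in the P7 cerebella and 45.7, 73.2 and 93.5 CPM in SHH MB. Tumor 1 was the only tumor above the P7 cerebella. Its log2 fold change was -0.76 ± 0.66 against P7 cerebella (0.459) and -1.94 without tumor 1 (0.0136), and 1.03 ± 0.68 against SHH MB (0.435) and -0.18 without tumor 1 (0.865), so that its sign there rests on tumor 1. Kcnk1, also for a leak channel, had 130.0, 61.4, 16.7 and 28.1 CPM in the tumors, 83, 85.5 and 57.9 CPM in the P7 cerebella and 40.6, 39.7 and 35.6 CPM in SHH MB, and it was called lower than in P7 cerebella only without tumor 1 (log2 fold change of -1.21, adjusted p = 0.0384). Kcnk13, a channel gene of microglia, had 2.46, 4.1, 8.88 and 3.63 CPM in the tumors and 4.37 to 7.14 CPM in the other libraries. The 10 microglia and macrophage markers (Csf1r the most abundant, none at 0) summed to 199, 122, 53.9 and 154 CPM in the tumors, 93.5, 91.4 and 80.9 CPM in the P7 cerebella and 83.5, 90.2 and 60.1 CPM in SHH MB, an order of tumors opposite to that of Kcnk13.

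Channels opened by calcium or sodium inside the cell follow firing and slow it. Of the 8 genes grouped in this family, 0 were called higher and 1 lower against P7 cerebella, and 1 higher and 0 lower against SHH MB, by edgeR. At an unadjusted p of at most 0.05 there were 1 and 1, and 3 and 2, while DESeq2 called 1 and 1, and 2 and 1, and limma 0 and 1, and 1 and 0. Kcnn3, for a small-conductance channel gated by calcium, had 11.5, 10.4, 13.6 and 11.2 CPM in the tumors, 35.8, 39.3 and 35.5 CPM in the P7 cerebella and 18.4, 23.8 and 19.4 CPM in SHH MB. It was the called gene with the closest tumors, all below both other groups, with a mean of 3.57 ± 0.16 (SD, n = 4) on the log2 CPM scale. Its log2 fold change against P7 cerebella was -1.65 ± 0.23 (edgeR adjusted p = 0.00318, lower in 4 of 4 tumors) and -1.73 without tumor 1 (0.000294), and the call was kept in each of 19 other fits, though not at the thresholds of the study. Against SHH MB it was -0.81 ± 0.23 and missed the threshold in edgeR (0.0693), while it passed in DESeq2 and, in edgeR, without tumor 1 (-0.92, adjusted p = 0.016). Its relative Kcnn2 had 40.5, 29.8, 7.36 and 16.5 CPM in the tumors, 19.6 to 26.2 CPM in the P7 cerebella and 13.1 to 14.8 CPM in SHH MB.

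Kcnt1, for a large channel gated by sodium, had 592, 179, 35.4 and 142 CPM in the tumors, 50.1, 64.4 and 58 CPM in the P7 cerebella and 21.9, 23.3 and 23.5 CPM in SHH MB. Tumor 3 lay below the P7 cerebella, and all tumors lay above SHH MB. The log2 fold change was 3.37 ± 0.71 against SHH MB (edgeR adjusted p = 0.0192, higher in 4 of 4 tumors) and 2.24 without tumor 1 (0.00479), with 0.115, 0.108 and 0.115 without SHH MB library 1, 2 or 3. Against P7 cerebella it was 2.04 ± 0.66 and did not pass in edgeR (0.0841), while DESeq2 called it higher. Kcnma1, for the large-conductance BK channel opened by voltage and calcium together, had 834, 264, 39.6 and 209 CPM in the tumors, 161, 169 and 142 CPM in the P7 cerebella and 82.2, 95.6 and 84.4 CPM in SHH MB. Tumor 3 was again below both groups. With all libraries edgeR called it in neither tumor comparison, while DESeq2 called it higher against SHH MB.

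Silent subunits form no channel alone and change those of the Kv2 family. Among the 10 genes, edgeR called 0 higher and 1 lower against P7 cerebella and 1 higher and 0 lower against SHH MB. At an unadjusted p of at most 0.05 there were 1 and 2, and 1 and 0, while DESeq2 called 1 and 1, and 1 and 0, and limma 0 in each. Kcng4 had 215, 37.5, 7.91 and 21.4 CPM in the tumors, 10.3, 10.3 and 7.07 CPM in the P7 cerebella and 6.79, 5.96 and 3.8 CPM in SHH MB. Tumor 1 was far above every other library, and tumor 3 was within the P7 cerebella. Against SHH MB the log2 fold change was 3.66 ± 0.92 (edgeR adjusted p = 0.0398, higher in 4 of 4 tumors) and 1.88 without tumor 1 (0.0183). The call was lost without tumor 2 (0.0529), P7 library 1 (0.0642), 2 (0.064) or 3 (0.0664), or SHH MB library 1 (0.156), 2 (0.165) or 3 (0.197). Kcns2 had 11.1, 5.18, 6.52 and 4.72 CPM in the tumors, 25.4, 17.2 and 13.6 CPM in the P7 cerebella and 12.5, 13.4 and 5.92 CPM in SHH MB. All tumors lay below the P7 cerebella, at a log2 fold change of -1.47 ± 0.39 (adjusted p = 0.0458, lower in 4 of 4 tumors) and -1.86 without tumor 1 (0.0037). Leaving out tumor 2 (0.102) or 4 (0.0745), P7 library 1 (0.156), 2 (0.125) or 3 (0.0883), or SHH MB library 1 (0.0822), 2 (0.0792) or 3 (0.0593) ended the call.

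Auxiliary subunits bind to the pore subunits and set their gating and transport. Of the 15 genes, edgeR called 1 higher and 1 lower in each comparison with the tumors (3 and 3 against P7 cerebella and 5 and 1 against SHH MB at an unadjusted p of at most 0.05). In the same order DESeq2 called 3 and 2, and 3 and 1, and limma 1 and 1, and 1 and 0. Kcnip4 codes for a KChIP protein, a calcium sensor that binds Kv4 channels and sets how fast they inactivate. Its level was 9219, 3391, 303 and 1737 CPM in tumors 1 to 4, 201, 221 and 181 CPM in the P7 cerebella and 126, 168 and 235 CPM in SHH MB. All tumors lay above all other libraries, tumor 3 by the least and tumor 1 by the most. The log2 fold change was 4.19 ± 0.89 against P7 cerebella (edgeR adjusted p = 0.0202) and 4.38 ± 0.90 against SHH MB (0.0174), higher in 4 of 4 tumors each. Without tumor 1 it was 3.06 (0.0054) and 3.21 (0.00556). The first call was lost without P7 library 1 (0.0982), 2 (0.112) or 3 (0.117), and the second without SHH MB library 1 (0.117), 2 (0.107) or 3 (0.0941). Predicted genes of the same strand overlap it, and how reads in such overlaps were assigned is not given in the sources used here.

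The level of Kcnip4 was also set against that of its partner. Per kilobase of exon it was 4.57, 6.26, 4.08 and 4.79 times the level of the Kv4 gene Kcnd2 in tumors 1 to 4, 0.671, 0.878 and 0.690 times in the P7 cerebella and 1.11, 1.23 and 1.58 times in SHH MB. With the longest transcript as length these were 6.90, 9.44, 6.16 and 7.22, then 1.01, 1.33 and 1.04, then 1.67, 1.86 and 2.39, so that the tumors stayed above all other libraries but the P7 cerebella were not below 1. By exon length the ratio lay between 4.08 and 6.26 in all tumors, while both genes differed widely in level between tumors 1 and 3. Over the 92 genes Kcnip4 had the highest mean in CPM per kilobase in the tumors (rank 1) and in SHH MB (rank 1), and it ranked 3 in the P7 cerebella. The 10 mature granule neuron markers followed the same order of tumors as Kcnip4, with 3 of 10 called higher against P7 cerebella and 7 of 10 against SHH MB by edgeR. The counts were the same without tumor 1, and 0 and 2 in the fits of only the 2 groups compared. The part of these neurons in the level of Kcnip4 was not tested.

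**Figure D4:**
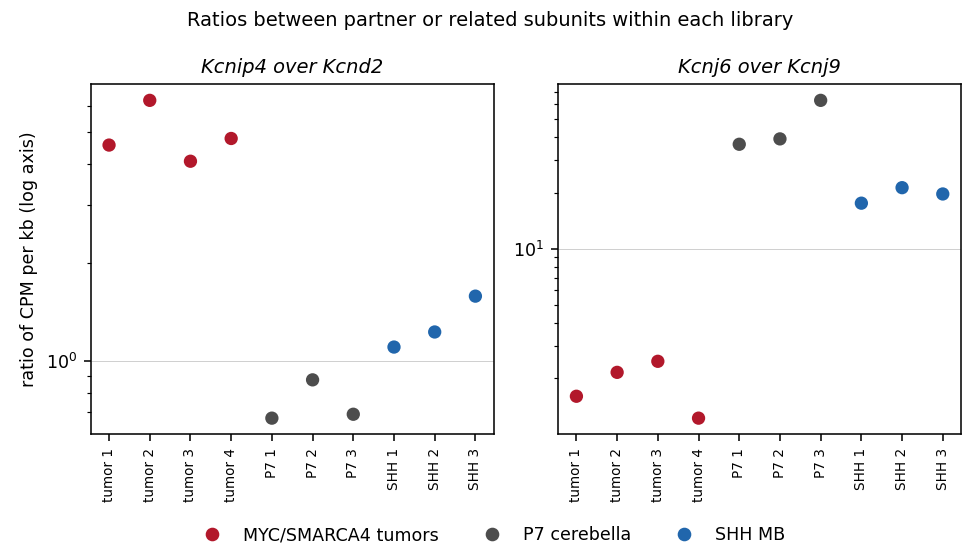
Ratio of CPM per kilobase (log axis) between partner or related subunit genes within each library, 1 point per library. Kcnip4 over Kcnd2 is higher, and Kcnj6 over Kcnj9 is lower, in each of the 4 tumors than in any P7 or SHH MB library.

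Kcne2 codes for a small subunit with a single membrane span that works in the epithelium of the choroid plexus. It was counted 5, 1, 9 and 5 times in tumors 1 to 4, 41, 73 and 40 times in the P7 cerebella and 42, 85 and 12 times in SHH MB. That is 1.23, 0.178, 1.25 and 0.605 CPM, then 4.15, 7.9 and 5.66 CPM, then 6.48, 9.93 and 1.69 CPM. Every tumor lay below every other library, with SHH MB library 3 the nearest. The log2 fold change was -2.85 ± 0.65 against P7 cerebella (edgeR adjusted p = 0.0257) and -2.89 ± 0.66 against SHH MB (0.0266), lower in 4 of 4 tumors. Without tumor 1 it was -3.13 (0.0104) and -3.18 (0.0130). The 10 choroid plexus markers summed to 56, 146, 166 and 52.6 CPM in the tumors, 628, 1233 and 726 CPM in the P7 cerebella and 1004, 1365 and 346 CPM in SHH MB. Ttr, the most abundant, was at 1.97, 0.178, 3.05 and 0.847 CPM in the tumors, near the floor, and at 512, 1088 and 598 CPM and 834, 1182 and 228 CPM in the other groups. Ttr carried most of the difference in the sum, as the 9 other markers summed to 54.1, 146, 163 and 51.8 CPM in the tumors, 116, 145 and 128 CPM in the P7 cerebella and 170.0, 183 and 119 CPM in SHH MB, with overlap of all groups. Gene by gene the list was mostly lower in the tumors, with 1 of 10 markers (Otx2) fitted higher against P7 cerebella (median log2 fold change of -1.27) and 0 of 10 against SHH MB (-1.02). By edgeR Ttr was the 1 marker called lower in each comparison, and Ttr and Clic6 were called in each without tumor 1. None of the 10 was at 0 in any library. The first call of Kcne2 was lost without tumor 2 (0.0533) or 4 (0.0711), P7 library 1 (0.0712), 2 (0.136) or 3 (0.107), or SHH MB library 1 (0.0513), and the second without tumor 2 (0.0534) or 4 (0.0637) or SHH MB library 1 (0.104) or 2 (0.17).

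Other auxiliary genes were not called by edgeR in a tumor comparison with all libraries. DESeq2 also called Kcnab1 and Kcnab3 higher in both and Kcnmb2 lower against P7 cerebella. Kcnab2, for a cytoplasmic beta subunit of Kv1 channels, had 149.9, 65.9, 33.3 and 74 CPM in the tumors, 44.4 to 52 CPM in the P7 cerebella and 36.2 to 43.2 CPM in SHH MB. Kcnmb2, for a beta subunit that inactivates BK channels, had 15, 7.14, 24.3 and 10.8 CPM in the tumors, 37.2, 35.8 and 30 CPM in the P7 cerebella and 27, 22.6 and 22.4 CPM in SHH MB. All tumors lay below the P7 cerebella for Kcnmb2, but the adjusted p was 0.0508 in edgeR (log2 fold change of -1.26 ± 0.35), and 0.0252 without tumor 1.

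**Figure D5:**
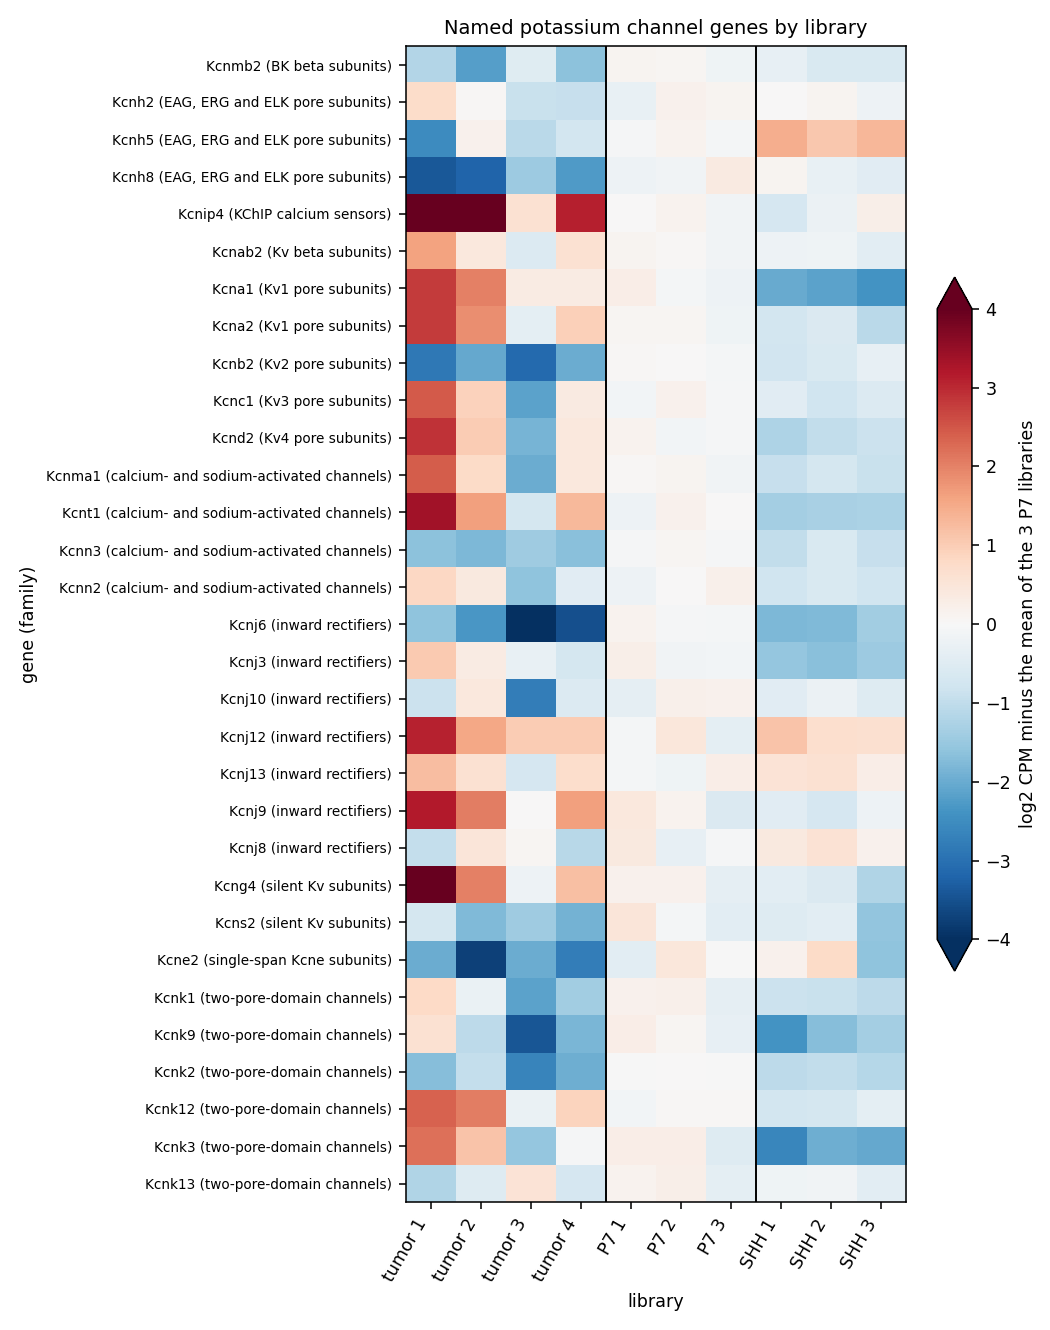
Log2 CPM of 31 named Kcn genes in each library minus the mean of the 3 P7 libraries (color, from -4 to 4), ordered by family. Tumor 1 is high and tumor 3 low for Kcnd2, Kcnc1 and Kcnma1 among others, and Kcnb2, Kcnh8, Kcnj6, Kcnk2, Kcnn3 and Kcne2 are low in all 4 tumors.

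The third comparison, SHH MB against P7 cerebella, sets the other tumor model against the same control. The Kcn genes were mostly lower in SHH MB, by a median log2 fold change of -0.54 with 73 of 91 genes below 0, beside -0.09 over all genes with 43.8 percent above 0. In the fit with all 10 libraries edgeR called 0 genes higher and 0 lower, beside 0.177 and 0.0467 percent of all genes. It found 3 higher and 13 lower at an unadjusted p of at most 0.05, beside 5.16 and 3.64 percent. At the adjusted threshold DESeq2 called 0 and 2 (Kcna1 and Kcnj3), beside 1.77 and 0.677 percent, and limma 0 and 0, beside 0.128 and 0.0173 percent. That fit takes its spread from all groups, the widely spread tumors included. In a fit of only these 6 libraries edgeR called 6 of 91 genes higher (6.59 percent) and 36 lower (39.6 percent), beside 13.4 and 10.3 percent of 29018 genes.

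In this fit of both groups alone Kcna1, at 26.8 to 34.7 CPM in SHH MB and 123 to 170.1 CPM in the P7 cerebella, had a log2 fold change of -2.18 ± 0.14 (adjusted p = 4.77e-12) in edgeR. The leak channel genes Kcnk3 (-2.25 ± 0.24, adjusted p = 5.35e-08) and Kcnk9 (-1.77 ± 0.18, 1.22e-08), and the rectifier genes Kcnj6 (-1.63 ± 0.13, 2.25e-10) and Kcnj3 (-1.56 ± 0.13, 5.45e-10) were lower as well, each in 3 of 3 SHH MB libraries without overlap of the groups. Kcnt1 (-1.30 ± 0.14, 7.7e-08), Kcnk2 (-1.03 ± 0.14, 3.43e-06) and Kcnd2 (adjusted p = 4.84e-07) followed, also without overlap, and Kcnc1, Kcnma1 and Kcnj10 were among the 36 too. The 6 higher genes were Kcnh5 (1.33 ± 0.16, adjusted p = 3.87e-07), Kcnj12 (0.82 ± 0.18, 0.00129), Kcnj13 (0.51 ± 0.16, 0.0223), Kcnh7, Kcnj2 and Kcnn4, of which the last 3 fall outside the rule for named genes and were chosen after their values were seen. In the same fit 7 of 10 markers of mature granule neurons, 9 of 10 of Purkinje cells, 9 of 10 of inhibitory interneurons, 9 of 10 of myelinating oligodendrocytes and 7 of 10 of astrocytes were called lower, and 7 of 10 of granule cell precursors higher. Their part in the levels of the channel genes was not tested.

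The other potassium genes, 52 genes in 9 lists, were all tested. Against P7 cerebella 1 was called higher and 5 lower by edgeR, with a median log2 fold change of 0.27, beside 3.99 and 2.27 percent of all genes. Against SHH MB 2 were higher and 3 lower, with a median of 0.52, beside 2.43 and 2.26 percent. Without tumor 1 these counts were 5 and 11, beside 9.64 and 6.11 percent, and 2 and 6, beside 5.0 and 4.75 percent. The medians were then -0.18, with the sign turned, and 0.30. In the fits of only the 2 groups compared 0 were higher and 3 lower (Hcn4, Lrrc55 and Fxyd6) against P7 cerebella, and 0 higher and 1 lower (Slc12a4) against SHH MB, beside the shares given above for these fits. Of the 5 gamma subunits of BK channels 1 was called lower in both comparisons: Lrrc55, which lets BK channels open at lower voltage, had 2.95, 6.25, 7.22 and 7.86 CPM in the tumors, 49.5, 47 and 53.3 CPM in the P7 cerebella and 16.5, 13.7 and 20.1 CPM in SHH MB. Its log2 fold change was -3.02 ± 0.32 (edgeR adjusted p = 0.000561) and -1.44 ± 0.31 (0.0215), lower in 4 of 4 tumors each, beside the level of the BK pore gene Kcnma1 that edgeR did not call. The second call was lost without tumor 2 (0.0507), P7 library 1 (0.0533), 2 (0.0532) or 3 (0.0521), or SHH MB library 1 (0.0976), 2 (0.0693) or 3 (0.143). Hcn4, for a pacemaker channel, was lower than in P7 cerebella (6.63, 6.96, 7.63 and 10.2 CPM against 20.7 to 24.2 CPM, adjusted p = 0.0113, log2 fold change of -1.54 in 4 of 4 tumors), a call lost without P7 library 1 (0.0526) or 2 (0.066).

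Of the 9 genes of the Na/K ATPase, the pump that builds the potassium gradient, the regulators Fxyd6 and Fxyd7 were lower than in P7 cerebella and Fxyd6 lower than in SHH MB. Fxyd6 had 45.9, 13.4, 8.05 and 21.5 CPM in the tumors, 165, 182 and 190.3 CPM in the P7 cerebella and 106, 89.9 and 81.4 CPM in SHH MB, without overlap. Of the 7 cation chloride cotransporters Slc12a4 was lower in both comparisons (9.85 to 15.7 CPM in the tumors, 23.2 to 31.6 CPM in the P7 cerebella and 40.3 to 46.9 CPM in SHH MB). Of the 12 genes that cluster or anchor Kv channels, Dlg1 was higher than in P7 cerebella (102 to 321 CPM against 72.6 to 95.9 CPM) and Lgi1 higher than in SHH MB (5.97 to 56.3 CPM against 3.8 to 7.36 CPM, with tumor 3 inside that range). None of the 4 partners of Kv4 and Kv2, the 2 sulfonylurea receptors, the 4 intracellular potassium channels, and the 5 genes of the repressor REST and its corepressors was called by edgeR in either comparison with all tumors. The calls of Lrrc55 and Fxyd6 against P7 cerebella and of Slc12a4 against SHH MB were kept in each of 19 other fits. That of Fxyd6 against SHH MB was lost without tumor 2 (0.0605) or SHH MB library 1 (0.111), 2 (0.0914) or 3 (0.0843). Those of Fxyd7, Slc12a4 and Dlg1 against P7 cerebella were lost without any P7 library (0.085 to 0.208) or any SHH MB library (0.0771 to 0.0889), without tumor 2 (Slc12a4, 0.0579, and Dlg1, 0.0916) or tumor 4 (Fxyd7, 0.0589, and Dlg1, 0.0668), and with limma. All of these genes also lost that call with the replicate block and without a filter (Fxyd7, 0.0551, Slc12a4, 0.0824, and Dlg1, 0.0512). Fxyd7 lost it with RLE factors as well (0.0505). That of Lgi1 was lost without tumor 2 (0.064), any P7 library (0.0567 to 0.059) or any SHH MB library (0.0998 to 0.191), with limma, and with the replicate block (0.0823). Rest itself, which silences neuronal genes, was at 27.8, 70.5, 73.1 and 95.3 CPM in the tumors, 22.4 to 31.3 CPM in the P7 cerebella and 42.7 to 57.6 CPM in SHH MB.

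The remaining marker lists of 10 genes each were read for other cells. Inhibitory interneuron markers (Gad1 the most abundant) summed to 2123, 478, 92.03 and 439 CPM in the tumors, 371, 426 and 392 CPM in the P7 cerebella and 158, 186 and 108 CPM in SHH MB, and myelinating oligodendrocyte markers (Mbp) to 4169, 849, 123 and 468 CPM, 964, 1145 and 1089 CPM, and 402, 379.6 and 132 CPM. Both again had tumor 1 highest and tumor 3 lowest, and the part of these cells in the Kcn genes was not tested. Of these lists, none higher and 1 and 0 lower were called by edgeR against P7 cerebella, and 2 and 1 higher against SHH MB. Without tumor 1, 3 and 2 were lower against P7 cerebella, where the medians turned from 0.32 and 0.26 to -0.31 and -0.82, and against SHH MB 2 and 1 were higher and 1 and 0 lower. Endothelial markers (Flt1) summed to 471, 196, 102 and 162 CPM in the tumors and 172 to 207 CPM elsewhere, markers of pericytes and smooth muscle (Rgs5, with Tagln at 0 in a library) to 206 to 440.0 CPM and 272 to 358 CPM, and of fibroblasts and meninges (Pdgfra) to 225 to 581.8 CPM and 487 to 596 CPM. Erythrocyte markers (Hbb-bs, with Ahsp and Hemgn at 0 in a library) summed to 47.6 to 197 CPM in the tumors and 89.2 to 370.1 CPM elsewhere. In each comparison edgeR called 1 pericyte or smooth muscle gene and 1 erythrocyte gene lower, and it called 1 fibroblast gene higher against P7 cerebella. It called 0 genes of the microglia, endothelium and skeletal muscle lists in either comparison, also without tumor 1 but for 3 endothelial genes lower in each. Of the astrocyte and Bergmann glia list 3 were lower against P7 cerebella, and 2 were higher and 1 lower against SHH MB, with 4 lower, and 2 and 1, without tumor 1. Of the granule cell precursor list 2 and 3 were lower, and without tumor 1 this was 1 higher and 3 lower against P7 cerebella and 8 lower against SHH MB. Of the Purkinje cell list 0 were called against P7 cerebella and 2 were higher against SHH MB. Without tumor 1 the Purkinje cell counts were 1 higher and 2 lower, with a median log2 fold change that turned from 0.68 to -0.85, and 3 higher, with a median of 0.61 in place of 2.10.

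Promoter windows were searched for short sequence motifs. What part MYC had in the levels of the channel genes was not tested. RefSeq windows (GRCm38.p6) of 250 bases before a transcript start were found for 67 of the 92 genes, and 2 motifs were searched on both strands: CACGTG, the E-box form that MYC binds, and CCAAT. The E-box was in at least 1 window of 5 of the 67 genes (7.46 percent: Kcnab1, Kcne4, Kcnh4, Kcnj2 and Kcnn4) and of 1854 of all 27025 genes (6.86 percent). Of the 18 genes called in a tumor comparison 13 were matched, and 0 of them held it. CCAAT was in 24 of 67 (35.8 percent) and in 10133 of all genes (37.5 percent), and among the 13 in Kcng4, Kcnip4, Kcnj3, Kcnj9, Kcnk2 and Kcnn3. The windows of the most upstream start in the table follow, 5′ to 3′ on the gene's strand, with this motif, on either strand, in capitals.
Kcnip4, chr5:49285660-49285909, minus strand: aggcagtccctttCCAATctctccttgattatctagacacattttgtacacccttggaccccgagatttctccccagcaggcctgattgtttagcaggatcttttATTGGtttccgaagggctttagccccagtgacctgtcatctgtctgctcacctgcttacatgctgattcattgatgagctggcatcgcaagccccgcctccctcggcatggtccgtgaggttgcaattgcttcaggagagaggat
Kcnj6, chr16:94997697-94997946, minus strand: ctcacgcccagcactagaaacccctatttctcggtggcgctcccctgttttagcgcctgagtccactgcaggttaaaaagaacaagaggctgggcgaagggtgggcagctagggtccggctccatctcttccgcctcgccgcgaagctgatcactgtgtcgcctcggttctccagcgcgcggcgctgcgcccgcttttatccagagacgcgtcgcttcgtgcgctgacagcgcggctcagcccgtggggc
Kcnj9, chr1:172329323-172329572, minus strand: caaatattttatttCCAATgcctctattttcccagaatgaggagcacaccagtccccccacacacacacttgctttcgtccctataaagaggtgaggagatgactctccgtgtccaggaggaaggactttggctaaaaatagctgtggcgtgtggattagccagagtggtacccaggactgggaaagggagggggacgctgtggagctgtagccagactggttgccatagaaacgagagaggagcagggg

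Kcnip4 thus has the motif in both orientations, Kcnj9 has it in 1, and neither motif is in the window of Kcnj6. GENCODE lists 8, 9 and 21 transcripts for these genes, and which starts the reads came from was not analysed here.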

How the data were processed

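Total RNA of 4 MYC/SMARCA4 tumors, 3 P7 cerebella and 3 SHH MB samples of mice was read from FFPE tissue after depletion of ribosomal RNA (CORALL Total RNA-seq). The authors trimmed reads with Trimmomatic 0.38.1, aligned them to GRCm39 with STAR 2.7.8a, counted them per gene with featureCounts 2.0.1 and deposited whole-number counts without normalization. The deposited table of 46123 genes holds log2 values made by the authors with the variance-stabilizing transformation of DESeq2 2.11.40.7. Annotation release and strand setting are not given in the sources used here. Of the 50559 genes, 2634 had 0 counts in all 10 libraries.

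Groups came from the labels. Library totals ran from 5663491 to 9352109 counts, and 3 counts were taken as the floor. Counts of all 10 libraries were fitted in R 4.3.3 with edgeR 4.0.16 (quasi-likelihood, a mean per group, TMM factors, filterByExpr, common dispersion of 0.178), and p-values were adjusted by the Benjamini-Hochberg method over the 29952 genes tested. A gene was called at an adjusted p of at most 0.05, and by a second rule at the thresholds of the study. CPM used TMM-scaled library sizes, log2 CPM a prior count of 2, and levels between genes the exon length of GENCODE. Alternatives were DESeq2 1.42.0, limma 3.58.1 on the deposited values, RLE factors, no filter, at least 10 counts in every library, library sizes without 119 mitochondrial and rRNA-like genes, robust estimation, an adjusted p of 0.01, a block for the replicate number, a fit of the 2 groups in question alone, each library left out, a prior count of 0.5, and the longest transcript as gene length.

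The rule for named genes took, in each comparison, up to 12 called genes in each direction whose groups did not overlap, every gene past the thresholds of the study, the most abundant gene per kilobase of each family, and 21 genes known in cell types of the cerebellum, 34 genes in all, of which 31 are described. Kcnj5 and all other Kcn genes named beside these were chosen after their values were seen. The members and the lists of marker genes and other potassium genes were chosen with earlier results of these data known. Motifs were searched in RefSeq promoter windows.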

Additional observations from a re-analysis of the deposited data

How the results depend on the processing

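Of the 23 calls of single genes in the tumor comparisons, 4 were kept in each of 19 other fits (Kcnb2 in both comparisons, Kcnn3 against P7 cerebella and Kcna1 against SHH MB), and none changed sign in any. By the thresholds of the study only the call of Kcna1 was kept. The log2 fold change of Kcnk9 against SHH MB, which was not called, was 1.03 with all tumors, ranged up to 1.28 (without SHH MB library 3) and turned to -0.18 without tumor 1. The counts with all libraries were 3 genes higher and 7 lower against P7 cerebella, 9 and 4 against SHH MB, and 0 and 0 for SHH MB against P7 cerebella. In the same order they were 10 and 8, 15 and 5, and 0 and 2 with DESeq2; 1 and 6, 4 and 3, and 0 and 0 with limma on the deposited values; 0 and 3, 1 and 1, and 6 and 36 with only the 2 groups compared; 0 and 2, 1 and 1, and 0 and 0 at an adjusted p of 0.01; 0 and 0, 1 and 0, and 0 and 0 at the thresholds of the study; 2 and 6, 9 and 5, and 0 and 0 with at least 10 counts in every library, where Kcne2 and Kcnh8 were not tested; and 4 and 6, 11 and 4, and 0 and 0 without a filter. RLE factors and library sizes without mitochondrial and rRNA-like genes gave 3 and 8, 9 and 4, and 0 and 0, and robust estimation gave the counts of the fit with all libraries. Shares of all genes are not given for the adjusted p of 0.01, both count filters, RLE factors, these library sizes and robust estimation. The counts under these settings therefore do not set the Kcn genes against other genes. With 1 library left out, the ranges were 0 to 16 and 3 to 22, 1 to 21 and 1 to 10, and 0 to 1 and 0 to 8. For SHH MB against P7 cerebella the highest counts came without tumor 1 (1 and 8, beside 2.86 and 1.19 percent of all genes). Without tumor 3 that comparison gave 0 and 5, beside 0.665 and 0.874 percent. The stricter adjusted p and the thresholds of the study call fewer genes by construction, and for the other settings the cause was not tested.

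The replicate block, in which libraries of the same number share a term, gave 0 and 2, 2 and 1, and 0 and 0. The share of all genes called under this block is not given, so these counts do not set the Kcn genes against other genes. Numbers do not pair libraries here: correlations of residuals between libraries of the same number and of different groups ran from -0.27 to 0.16. Between libraries of different numbers and groups they ran from -0.24 to 0.30.

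Over the alternatives the adjusted p of Kcnip4 ranged up to 0.117 against P7 cerebella and 0.117 against SHH MB, that of Kcnj9 up to 0.224 and 0.146, and that of Kcnj6 against P7 cerebella up to 0.0569. A prior count of 0.5 moved 0 of 102 mean levels of named genes beyond the spread of the replicates, and the longest transcript as length moved 44 of 102. Levels of genes near 3 counts, as Kcne2 and Kcnh8 in the tumors, are limited by depth.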

Other observations

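The 6 symbols outside the rule were counted as well. Kcne1l, related to the single-span subunits, had 2, 18, 10 and 29 counts in tumors 1 to 4, 168, 208 and 211 counts in the P7 cerebella and 72, 140 and 96 counts in SHH MB, so that every tumor lay below every other library. Kcnq1ot1, a long noncoding RNA of an imprinted region, had 3609, 6229, 5440 and 9656 counts in the tumors, 6056, 5258 and 3515 counts in the P7 cerebella and 5825, 7139 and 7627 counts in SHH MB. Kcnd3os, Kcnmb4os1, Kcnmb4os2 and Kcnrg had at most 40 counts in any library. These genes were not tested for the text.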
